A study of Mus musculus with 10 samples.

Results

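The genes described here are 38 genes of endoplasmic reticulum (ER) protein folding and of the stress response that adjusts it. They were taken by Ensembl identifier from the 22165 genes of the count table and fall into 5 lists: 17 chaperones and folding enzymes, 8 genes of ER-associated degradation, 4 genes of the translocon, 4 sensors and their transcription factors, and 5 genes of the ATF4 and CHOP branch. The libraries came from macrophages of the mouse peritoneal cavity (C57BL/6), collected with a 5 ml PBS lavage and sorted on CD64, ICAM-2 and CD115. There were 4 groups: knockout with IL-4 (3 libraries), wild type with IL-4 (3 libraries), knockout basal (2 libraries) and wild type basal (2 libraries). Knockout mice carried LysM-Cre and a floxed (fl/fl) allele and wild type mice the same floxed allele without Cre, so that the genotypes differed in Cre as well as in the deletion. IL-4 was injected intraperitoneally as a complex with an antibody to IL-4, basal mice received saline, and cells were taken 36 hours later. LysM-Cre sits in the Lyz2 locus and acts in myeloid cells. Nothing in the labels ties each replicate to an animal of its own, and the p-values therefore measure the spread between these libraries, which may be technical.

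Proteins bound for the secretory pathway enter the ER through the Sec61 channel, fold there with chaperones such as BiP (Hspa5) and GRP94 (Hsp90b1), and are sent back to the cytosol for degradation when they fail to fold. Unfolded protein in the ER activates the sensors IRE1 (Ern1), PERK (Eif2ak3) and ATF6. IRE1 splices Xbp1 mRNA and ATF6 is cut to a transcription factor, and both lines raise chaperone and degradation genes, while PERK slows translation and raises ATF4, which in turn acts on Ddit3, the gene of CHOP. Macrophages use this system to make secreted and lysosomal proteins, and IL-4 is known to change what they secrete. Counts per gene do not show Xbp1 splicing, the cutting of ATF6 or phosphorylation.

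Total counts ranged from 8762403 to 15024073 per library, and 11614 genes with enough counts were tested, 36 of the 38 among them. Trib3, a pseudokinase that ATF4 and CHOP induce, had at most 0.45 CPM (counts scaled to a common library size, with TMM factors) in any library, and Chac1, a glutathione-degrading enzyme, at most 0.19 CPM, so neither was tested. Lyz2, the locus that carries Cre, had 4096, 3504 and 2845 CPM in knockout IL-4 libraries, against 7046, 5912 and 6457 CPM in wild type IL-4 libraries, and 2664 and 9675 CPM in knockout basal libraries, against 23600 and 21900 CPM in wild type basal libraries. Of the macrophage markers, Adgre1 lay between 559 and 885 CPM, Csf1r, which encodes CD115, between 248 and 368 CPM, and Fcgr1, which encodes CD64, between 7.99 and 37.5 CPM over all libraries. Fcgr1 had 11.6, 8.58 and 11.1 CPM in wild type IL-4 libraries, against 37.5 and 34.0 CPM in wild type basal libraries. In knockout it had 13.6, 7.99 and 8.81 CPM with IL-4, against 27.7 and 21.7 CPM in basal libraries. Icam2, the gene of ICAM-2, had 347, 298 and 588 against 833 and 1154 CPM in wild type. In knockout Icam2 had 488, 275 and 398 against 525 and 714 CPM. Adgre1 and Csf1r overlapped between IL-4 and basal libraries of wild type. Markers of other cells were not evenly spread either. The 18 of 20 B cell markers that were measured summed to 2215 to 2554 CPM in knockout basal libraries, against 355 to 526 CPM in wild type basal libraries, and to 858 to 945 CPM in knockout IL-4 libraries, against 761 to 878 CPM in wild type IL-4 libraries.

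Many of these genes carry an ER stress element, the site bound by ATF6 and XBP1 with the factor NF-Y, close to their start, and these sites are shown because they are the sequence through which the response is known to act on its targets. Promoter windows of 300 bases (250 before to 50 after the annotated start) were read from RefSeq on GRCm38.p6 for 33 of the 38 members, Ero1l under its RefSeq name Ero1a. The set of windows held none for Derl1, Hyou1, Atf6, Manf and Sec61a1, so these genes were not searched. Exact matches to the ER stress element ERSE, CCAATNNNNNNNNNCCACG, were found on either strand in 9 members. They are written below in the direction of the motif, with the CCAAT and CCACG ends in capitals.
Hspa5: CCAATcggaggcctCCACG
Hsp90b1, far: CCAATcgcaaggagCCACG
Hsp90b1, near: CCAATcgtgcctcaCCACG
Calr: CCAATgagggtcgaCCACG
Canx: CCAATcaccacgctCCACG
Creld2: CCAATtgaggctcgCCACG
Pdia6: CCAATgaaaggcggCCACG
Dnajc3: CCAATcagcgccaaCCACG
Syvn1: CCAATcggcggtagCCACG
Derl3: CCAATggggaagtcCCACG

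The shorter ERSE-II, ATTGGNCCACG, was matched in 2 further members, shown in the same way with its fixed bases in capitals.
Dnajb11: ATTGGcCCACG
Herpud1: ATTGGgCCACG

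By window, ERSE was in 25% of the 36 windows of members and in 0.119% of all 32851 windows of the table, and ERSE-II in 5.56% and 0.0365%. The TGACGTGG core bound by XBP1 was matched in 1 window, of Txndc5, or 2.78% of members' windows and 0.676% of all windows. TGATGNAA, the composite site of C/EBP and ATF4, was matched in Txndc5, Herpud1, Trib3 and Chac1, or 11.1% of members' windows and 3.97% of all windows. TGACGTGG can share its CGTGG end with an ERSE on the other strand, and no match of these 4 motifs overlapped another in these windows. These genes are textbook targets of the response, so the shares describe how the list was chosen, and an exact match is not evidence of binding in these cells. Of the 11 members with ERSE or ERSE-II, 8 were chaperones and 3 degradation genes, while the windows read for the translocon, the sensors and the ATF4 and CHOP branch had none. Whole windows follow for 4 members whose values are described below, with every match in capitals.
Hspa5 (chr2:34771840-34772139, plus strand): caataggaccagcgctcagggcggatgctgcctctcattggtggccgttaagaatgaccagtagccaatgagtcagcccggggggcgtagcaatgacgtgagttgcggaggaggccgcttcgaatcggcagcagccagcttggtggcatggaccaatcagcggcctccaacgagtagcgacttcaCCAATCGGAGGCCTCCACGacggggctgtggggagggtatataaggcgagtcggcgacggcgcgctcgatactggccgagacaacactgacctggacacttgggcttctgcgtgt
Dnajc3 (chr14:118937682-118937981, plus strand): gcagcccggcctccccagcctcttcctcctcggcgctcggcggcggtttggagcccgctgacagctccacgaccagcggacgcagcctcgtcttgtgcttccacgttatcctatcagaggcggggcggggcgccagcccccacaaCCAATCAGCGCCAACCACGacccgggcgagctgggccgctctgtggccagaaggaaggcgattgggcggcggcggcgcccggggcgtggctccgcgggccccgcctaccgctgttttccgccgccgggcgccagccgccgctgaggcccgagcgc
Herpud1 (chr8:94386179-94386478, plus strand): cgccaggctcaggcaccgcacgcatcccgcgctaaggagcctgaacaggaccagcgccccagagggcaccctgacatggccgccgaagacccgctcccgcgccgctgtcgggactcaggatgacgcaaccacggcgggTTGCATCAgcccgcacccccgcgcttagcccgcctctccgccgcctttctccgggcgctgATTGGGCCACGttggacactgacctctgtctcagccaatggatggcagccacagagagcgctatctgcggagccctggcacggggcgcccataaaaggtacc
Syvn1 (chr19:6046326-6046625, plus strand): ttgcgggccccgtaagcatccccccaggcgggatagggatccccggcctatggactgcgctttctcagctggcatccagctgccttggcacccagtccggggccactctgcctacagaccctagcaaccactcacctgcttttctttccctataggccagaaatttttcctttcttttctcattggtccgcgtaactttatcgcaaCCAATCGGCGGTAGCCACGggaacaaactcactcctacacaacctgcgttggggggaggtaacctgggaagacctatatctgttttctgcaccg

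**Figure D1:**
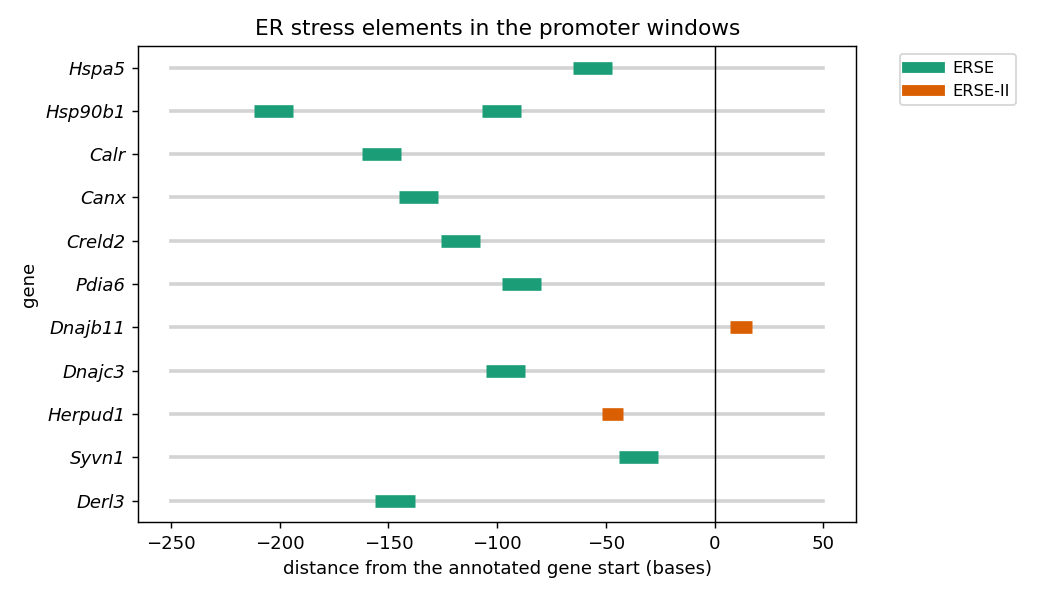
Position of ERSE (green) and ERSE-II (orange) matches in the promoter windows of 11 members, in bases from the annotated gene start. Hsp90b1 holds 2 matches, and the single match in Dnajb11 lies after the start.

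Levels can be set side by side only per length, and they are given here as CPM per kilobase of exon (GENCODE M21), as means over the libraries of a group. In wild type basal libraries the highest levels per kilobase were those of Calr, the lectin chaperone calreticulin (1897 CPM per kb), Hsp90b1 (769), Hspa5 (491), Selenos, a selenoprotein of the degradation machinery (329), and Sdf2l1, a cofactor of BiP (218). Calr lay above Hsp90b1 in every wild type basal library, at 1451 to 2343 against 660 to 878 CPM per kb, and Hsp90b1 above Hspa5, at 467 to 515. After IL-4 the 3 knockout libraries had 827 to 1236 CPM per kb for Calr and 714 to 1062 for Hsp90b1. These ranges overlapped between libraries, while within each of the 3 libraries Calr was the higher per kilobase. Of the sensors and their factors, Xbp1 had 64.2 CPM per kb in wild type basal libraries, Atf6 7.68, Ern1 7.28 and Eif2ak3 3.01. Atf6 and Ern1 overlapped there, and Eif2ak3 lay under both. Calr has a processed pseudogene, and reads shared between such copies are an uncertainty of its level. Of the 36 members tested, Derl3, a derlin of secretory cells, was the lowest, at 0.48 CPM per kb in wild type basal libraries and 0 to 3.13 CPM over all libraries, and it is given as a value only.

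**Figure D2:**
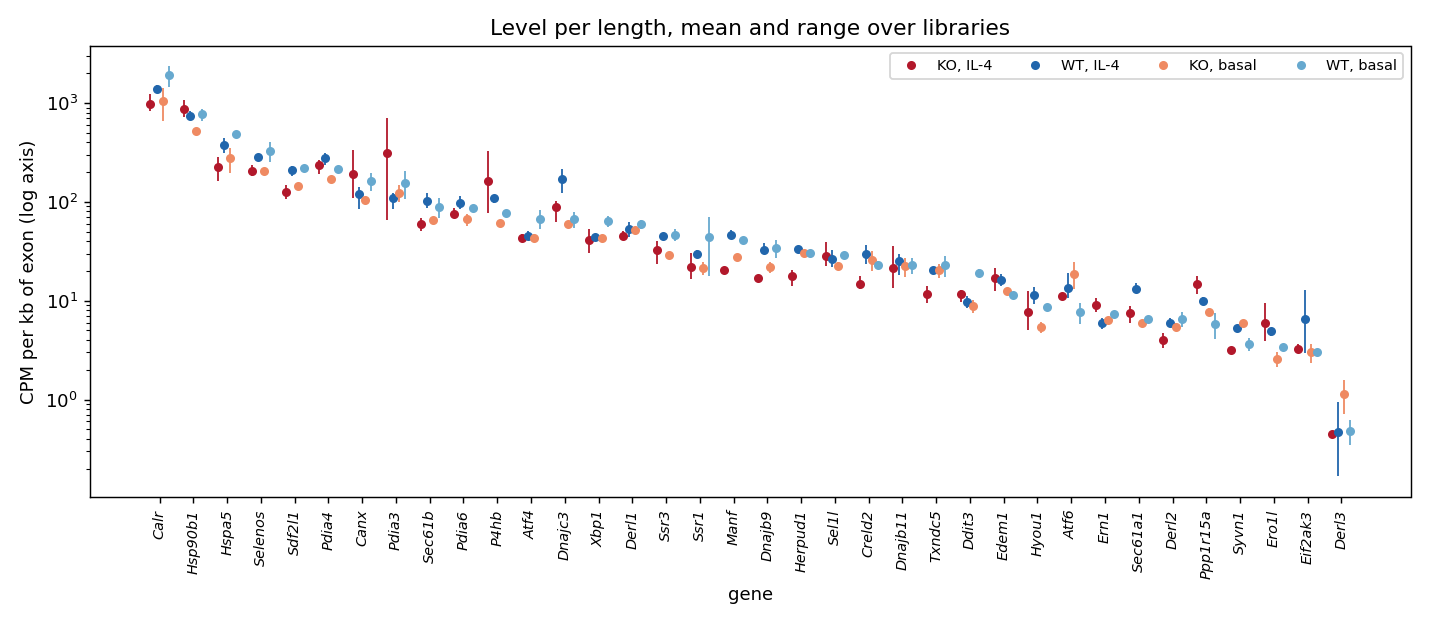
Level of each tested member in CPM per kilobase of exon on a log axis, with points for group means and lines for the lowest to highest library. Genes are ordered by wild type basal level, from Calr (1897) to Derl3 (0.48); the line of knockout IL-4 is left out for Derl3, whose lowest library was 0.

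After IL-4, values were lower in knockout than in wild type macrophages for most of these genes. Of 36 members tested, 26 had a log2 difference (knockout minus wild type) below 0, and the median was -0.41, against 0.02 over all genes tested. A single member, 1 of 36, fell past the threshold, Manf, a secreted factor of the ER that is induced by stress and protects against it. The members with the next 6 smallest p-values were the BiP cofactors Dnajb9, Dnajc3 and Sdf2l1, the ER protein Creld2, the degradation gene Herpud1 and the channel subunit Sec61a1, each lower in all 3 knockout libraries, and the sensor Ern1 had the smallest p of those above 0. In bulk libraries, fewer cells of a type and less RNA per cell cannot be told apart.

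Manf (ENSMUSG00000032575, chromosome 9, 106838312 to 106891979, GRCm38) had 65.9, 74.5 and 77.2 CPM in knockout IL-4 libraries, against 184, 154 and 147 CPM in wild type IL-4 libraries. The highest knockout library was well under the lowest wild type library. Manf fell 2.23-fold (72.5 ± 5.87 against 162 ± 19.4 CPM, SD, n = 3 libraries each; log2 -1.16 ± 0.19, SE, edgeR quasi-likelihood adjusted p = 0.00801). When wild type IL-4 replicate 1 was left out the call ended (log2 -1.06, adjusted p = 0.0774), and it held in the other 9 such fits. The exons of Manf share 146 of 3524 bases with Dcaf1 on the other strand and 14 bases with Rbm15b, and whether the counting used strand is not given in the sources used here.

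The edgeR test called 0.353% of all genes higher and 0.474% lower in this comparison, and 1 of 36 members lower. At an unadjusted p under 0.05, 2 members were higher and 15 lower, against 7.47% and 6.94% of all genes. In 15 members (41.7%) every knockout library was below every wild type library, against 10.7% of all genes, and in 2 members (5.56%) every knockout library was above, against 9.57% of all genes. DESeq2 called 8 members lower, namely Manf, Dnajb9, Dnajc3, Sdf2l1, Creld2, Sec61a1, Herpud1 and Txndc5, against 1.71% of all genes lower and 1.78% higher in DESeq2. Summed G2 and mitosis markers were 876 to 1524 CPM in knockout IL-4 libraries, against 520 to 579 CPM in wild type IL-4 libraries, and neutrophil markers 139 to 193 against 206 to 245 CPM, with 3 of 8 tested called lower. Markers of small macrophages, monocytes and dendritic cells summed to 7199 to 9702 against 5021 to 6205 CPM, and without Retnla, which carried the sum, to 1881 to 1921 against 2155 to 2574 CPM. Plasma cell markers summed to 72.7 to 87.9 against 55.3 to 58.9 CPM, and without Irf4 and Slamf7 to 16.3 to 28.1 against 19.4 to 25.02 CPM. The part of these cells in the differences was not tested.

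Among the 17 chaperones and folding enzymes, 12 were below 0 and the median log2 was -0.48. Dnajb9, which brings clients to BiP and restrains IRE1, had 41.7, 46.5 and 40.0 CPM in knockout IL-4 libraries, against 98.5, 75.7 and 76.5 CPM in wild type IL-4 libraries (log2 -0.97 ± 0.23, adjusted p = 0.0583). Creld2 had 24.5, 18.7 and 17.9 CPM in knockout, against 49.4, 40.3 and 32.4 CPM in wild type (log2 -1.0 ± 0.25, adjusted p = 0.0771). Dnajc3, a BiP cofactor also known as p58IPK, had 525, 320 and 518 CPM in knockout, against 627, 1092 and 880 CPM in wild type (log2 -0.93 ± 0.24, adjusted p = 0.0889). For each of these genes all knockout libraries were the lower ones, and none passed the threshold. Hspa5, the gene of BiP, had 681, 1192 and 950 CPM in knockout, against 1856, 1325 and 1634 CPM in wild type (log2 -0.77 ± 0.24, adjusted p = 0.158). Hsp90b1, whose product GRP94 works beside BiP, overlapped between the groups, with 3286, 2879 and 4283 CPM in knockout, against 2683, 2894 and 3371 CPM in wild type (log2 0.22 ± 0.19, adjusted p = 0.631).

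Of the 5 chaperones with a log2 above 0, 4 had a single knockout library far above the others. Pdia3, a disulfide isomerase that works with calreticulin, had 2231 CPM in knockout IL-4 replicate 3, against 207 to 503 CPM in the other knockout IL-4 libraries and 264 to 388 CPM in wild type IL-4 libraries. P4hb, the classical protein disulfide isomerase, had 940 CPM in knockout IL-4 replicate 2 and 223 to 241 CPM in the other knockout IL-4 libraries, against 280 to 339 CPM in wild type. Canx, the membrane lectin calnexin, had 1561 CPM in the same replicate 2 and 516 to 620 CPM in the others, against 395 to 657 CPM in wild type. Outside the high library, P4hb was thus below every wild type library and Canx within the wild type range. Ero1l, the oxidase that recharges disulfide isomerases, was highest in knockout IL-4 replicate 1 (50.5 CPM), with 20.5 and 22.5 CPM in the other knockout libraries and 23.4 to 28.3 CPM in wild type. Hyou1, a large chaperone that helps BiP exchange nucleotide, was also highest in that replicate, at 90.6 CPM, against 36.6 and 40.8 CPM in the other knockout libraries and 66.2 to 98.7 CPM in wild type. Its log2 of -0.55 (adjusted p = 0.437) passed the threshold when that replicate was left out (log2 -1.09, adjusted p = 0.0499).

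Of the 8 degradation genes, 6 were below 0, with a median log2 of -0.36. Herpud1, which assembles the degradation complex at the ER membrane, had 44.4, 47.8 and 32.8 CPM in knockout IL-4 libraries, against 82.8, 70.7 and 79.1 CPM in wild type IL-4 libraries (log2 -0.90 ± 0.21, adjusted p = 0.0581). Syvn1, the ubiquitin ligase HRD1 at the centre of that complex, had 14.3, 16.4 and 15.9 CPM in knockout, against 25.9, 26.4 and 24.5 CPM in wild type (log2 -0.72 ± 0.22, adjusted p = 0.149). In both genes the groups were apart, and neither passed the threshold. Sel1l, the partner that stabilises HRD1, overlapped between the groups (log2 0.12 ± 0.23), as did Edem1, a lectin-like factor for glycoproteins (log2 0.06 ± 0.23).

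All 4 translocon genes were below 0, with a median log2 of -0.63. Sec61a1, the channel itself, had 52.7, 59.8 and 39.9 CPM in knockout IL-4 libraries, against 82.3, 83.2 and 101 CPM in wild type IL-4 libraries (log2 -0.80 ± 0.21, adjusted p = 0.0923). Sec61b, a small subunit of the channel, had 77.7, 86.3 and 64.1 CPM in knockout, against 155, 109 and 123 CPM in wild type (log2 -0.76 ± 0.23, adjusted p = 0.138). Both were lower in each knockout library without passing the threshold, and the translocon-associated genes Ssr3 and Ssr1 had log2 -0.49 ± 0.22 and -0.44 ± 0.39.

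Of the 4 sensors, 3 were below 0 (median log2 -0.20), as was 1 of the 3 tested genes of the ATF4 and CHOP branch (median 0.27). Ern1, the gene of IRE1, was the higher in all 3 knockout libraries, with 63.0, 87.5 and 72.3 CPM, against 42.5, 47.1 and 55.1 CPM in wild type (log2 0.62 ± 0.21, adjusted p = 0.186). Ppp1r15a, the gene of GADD34 that reverses the translation block, had 52.7, 34.6 and 42.5 CPM in knockout, against 27.4, 28.2 and 32.3 CPM in wild type (log2 0.56 ± 0.26, adjusted p = 0.332). These were the 2 members above 0 whose groups were apart, and neither passed the test. Atf4 (log2 -0.06 ± 0.21) and Ddit3 (log2 0.27 ± 0.24) overlapped between the groups, as did Xbp1 (log2 -0.11 ± 0.22) and Atf6 (log2 -0.28 ± 0.28). The log2 difference of Eif2ak3, -1.01 ± 0.44 (adjusted p = 0.322), came with 77.9 CPM in wild type IL-4 replicate 2, against 17.7 and 22.8 CPM in the other wild type libraries and 18.4 to 22.0 CPM in knockout.

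**Figure D3:**
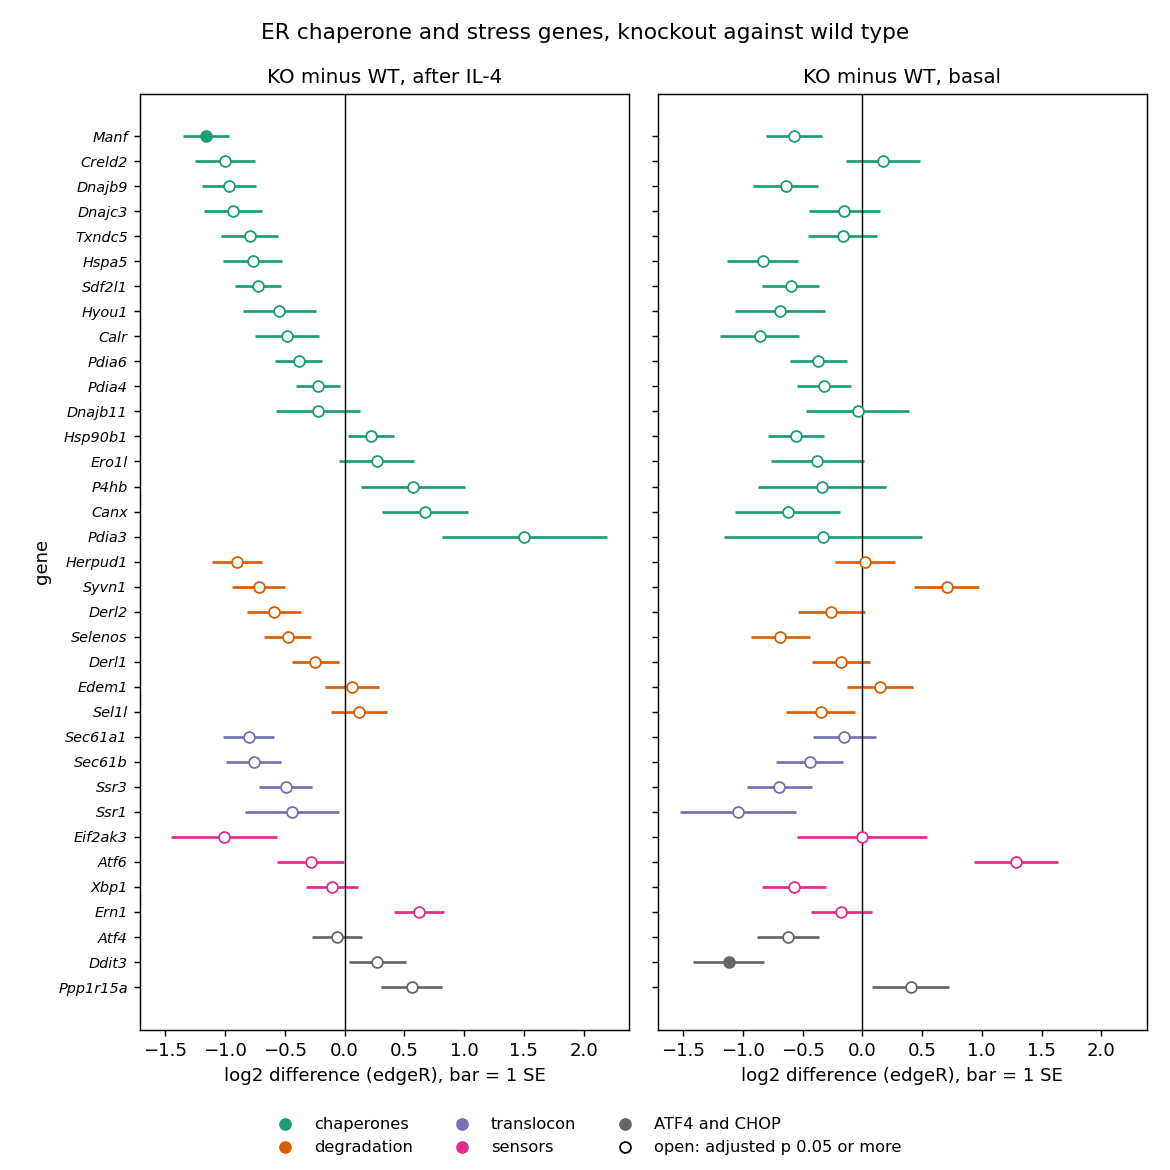
Log2 difference of knockout minus wild type for 35 tested members (Derl3 left out for its wide error), after IL-4 on the left and without IL-4 on the right, with bars of 1 SE. Most points lie left of 0 in both panels, and the filled points, Manf after IL-4 and Ddit3 without IL-4, passed the threshold.

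Without IL-4 the knockout values were again mostly the lower ones, with a different leading gene. Of 36 members, 29 were below 0 and the median log2 was -0.34, against -0.02 over all genes tested. Ddit3, the gene of the transcription factor CHOP that drives stress-induced death, fell past the threshold. Among the 17 chaperones, 16 were below 0 (median log2 -0.38), and all 4 translocon genes were (median -0.57), while the 8 degradation genes were split evenly at 4 each (median -0.08).

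Ddit3 (ENSMUSG00000025408, chromosome 10, 127290774 to 127296288, GRCm38) had 17.5 and 12.9 CPM in knockout basal libraries, against 36.2 and 29.7 CPM in wild type basal libraries. Knockout lay lower in both libraries, and the fall was 2.17-fold (15.2 ± 3.28 against 32.9 ± 4.56 CPM, SD, n = 2 libraries each; log2 -1.12 ± 0.30, edgeR adjusted p = 0.0463). The call held in 3 of 10 fits that each left out 1 library. It ended when any of the 4 basal libraries or the 3 wild type IL-4 libraries was missing (adjusted p 0.0614 to 0.301), and also with library totals in place of TMM scaling (0.0885). The exons of Ddit3 share 68 bases with Mars on the other strand.

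The edgeR test called 2.61% of all genes higher and 1.53% lower here, and 1 of 36 members lower. At an unadjusted p under 0.05, 2 members were higher and 11 lower, against 8.79% and 8.92% of all genes. In 21 members (58.3%) both knockout libraries were below both wild type libraries, against 24.5% of all genes, and in 4 members (11.1%) above, against 23.7% of all genes. Plasma cells, which depend on a large ER, gave sums over 9 of 10 markers of 96.9 to 119 CPM in knockout basal libraries, against 30.4 to 35.0 CPM in wild type basal libraries, beside the B cell markers given above. Of the plasma cell markers, Mzb1 had 50.7 and 49.2 CPM in knockout basal libraries, against 4.63 and 13.4 CPM in wild type basal libraries, while Tnfrsf17 was at 0 in both knockout basal libraries. T and NK cell markers were at 110 to 121 against 27.1 to 48.7 CPM, markers of small macrophages, monocytes and dendritic cells at 1803 to 2320 against 671 to 1100 CPM, and markers of mast cells and basophils at 188 to 317 against 83.8 to 132 CPM. Cd2 carried the T and NK sum, at 84.5 and 82.4 against 13.6 and 27.0 CPM. Cd3g was at 4.87 and 3.94 against 4.82 and 7.11 CPM, and 1 of 13 tested T and NK markers was called higher. Of the small macrophage list, Cd74 had 350 and 545 against 75.7 and 119 CPM. Ccr2 overlapped between the genotypes, at 139 and 187 against 66.9 and 154 CPM. Without Hdc, at 29.2 and 54.3 CPM in knockout against 105 and 54.1 CPM in wild type, the mast cell and basophil markers were at 159 to 263 against 27.1 to 29.6 CPM. G2 and mitosis markers were lower in knockout basal libraries, at 74.5 to 150 against 199 to 225 CPM. The part of these cells in the basal differences was not tested.

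Of the chaperones, Hspa5 had 1498 and 831 CPM in knockout basal libraries, against 2176 and 1976 CPM in wild type basal libraries (log2 -0.83 ± 0.30, adjusted p = 0.140). Calr had 4129 and 1900 CPM in knockout, against 4178 and 6749 CPM in wild type (log2 -0.86 ± 0.33, adjusted p = 0.179). The knockout libraries were the lower ones for both genes, in replicate 1 by little for Calr. Selenos and Syvn1 had the smallest p of the degradation genes (adjusted p = 0.138 and 0.176) and opposite signs (log2 -0.69 ± 0.24 and 0.71 ± 0.27). Syvn1 had 28.4 and 28.8 CPM in knockout basal libraries, against 20.2 and 14.9 CPM in wild type basal libraries. Ssr3 and Ssr1 led the translocon (log2 -0.69 ± 0.27 and -1.04 ± 0.48, adjusted p = 0.180 and 0.290), and Ssr1 stood at 734 CPM in wild type basal replicate 2, against 185 CPM in replicate 1.

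Among the sensors, Atf6 had 121 and 225 CPM in knockout basal libraries, against 54.1 and 87.6 CPM in wild type basal libraries (log2 1.29 ± 0.35, adjusted p = 0.0525), and it passed with library totals (log2 1.45, adjusted p = 0.0190) and in DESeq2 (adjusted p = 0.00996). Xbp1 had 136 and 145 CPM in knockout, against 236 and 181 CPM in wild type (log2 -0.57 ± 0.27, adjusted p = 0.280). Atf6 was thus the higher and Xbp1 the lower in knockout with no overlap, and neither passed at the settings used throughout. Atf6 also passed without the filter on low counts (adjusted p = 0.00130), with the replicate block (0.0250) and with knockout basal replicate 1 (0.0301) or wild type IL-4 replicate 2 (0.0413) missing. Atf4, which acts upstream of Ddit3, had 110 and 95.1 CPM in knockout, against 124 and 193 CPM in wild type (log2 -0.63 ± 0.26, adjusted p = 0.216).

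The comparisons of genotypes after IL-4 and without it share no library, so their directions can be set side by side. Of 36 members, 21 were lower in knockout in both (58.3%), 2 were higher in both and 13 had opposite signs. Over all 11614 genes tested, 26.5% were lower in both. With 26 and 29 of 36 members below 0 in the separate comparisons, about as many would be lower in both if the directions were unrelated. The count therefore adds nothing to those 2 shares. With the genotype effect averaged over both treatments, a comparison added after the data had been seen, 4 of 36 members fell and none rose past the threshold, against 1.68% of all genes lower and 2.32% higher. At an unadjusted p under 0.05, 17 members were lower and 2 higher in the average, against 9.58% and 9.25% of all genes. DESeq2 called 7 members, all lower, against 2.78% of all genes lower and 4.02% higher. The median log2 of the 36 members was -0.40 in the average, against 0.00460 over all genes.

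All 4 genes that fell in the average are chaperones or their cofactors. Manf fell most (log2 -0.87 ± 0.15, adjusted p = 0.00551), with 101 and 94.4 CPM in knockout basal libraries, against 135 and 156 CPM in wild type basal libraries, beside the IL-4 libraries given above. Dnajb9 had 63.1 and 48.1 CPM in knockout basal libraries, against 69.6 and 104 CPM in wild type basal libraries (average log2 -0.80 ± 0.18, adjusted p = 0.0201). Both genes were lower in every knockout library than in every wild type library of the same treatment. Hspa5 fell by 0.80 ± 0.19 on the log2 scale in the average (adjusted p = 0.0304). Sdf2l1, which forms a complex with ER chaperones, had 166, 139 and 117 CPM in knockout IL-4 libraries, against 253, 202 and 242 CPM in wild type IL-4 libraries. In basal libraries Sdf2l1 had 165 and 153 CPM in knockout, against 221 and 262 CPM in wild type (average log2 -0.66 ± 0.15, adjusted p = 0.0258). The groups of Sdf2l1 did not overlap under either treatment.

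Manf kept its averaged call whichever of the 10 libraries was left out (adjusted p at most 0.0352). The averaged calls of Dnajb9, Hspa5 and Sdf2l1 all ended when knockout basal replicate 2 was missing (adjusted p = 0.112, 0.141 and 0.114). The same held for wild type basal replicate 2 (0.0927, 0.0621 and 0.0898) and for replicate 1 of wild type IL-4 (0.0594, 0.0829 and 0.0689). Hspa5 also lost its call with wild type basal replicate 1 missing (0.0733) and Sdf2l1 with knockout basal replicate 1 missing (0.0872), and both lost it with the third wild type IL-4 library missing (0.0719 and 0.0698).

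**Figure D4:**
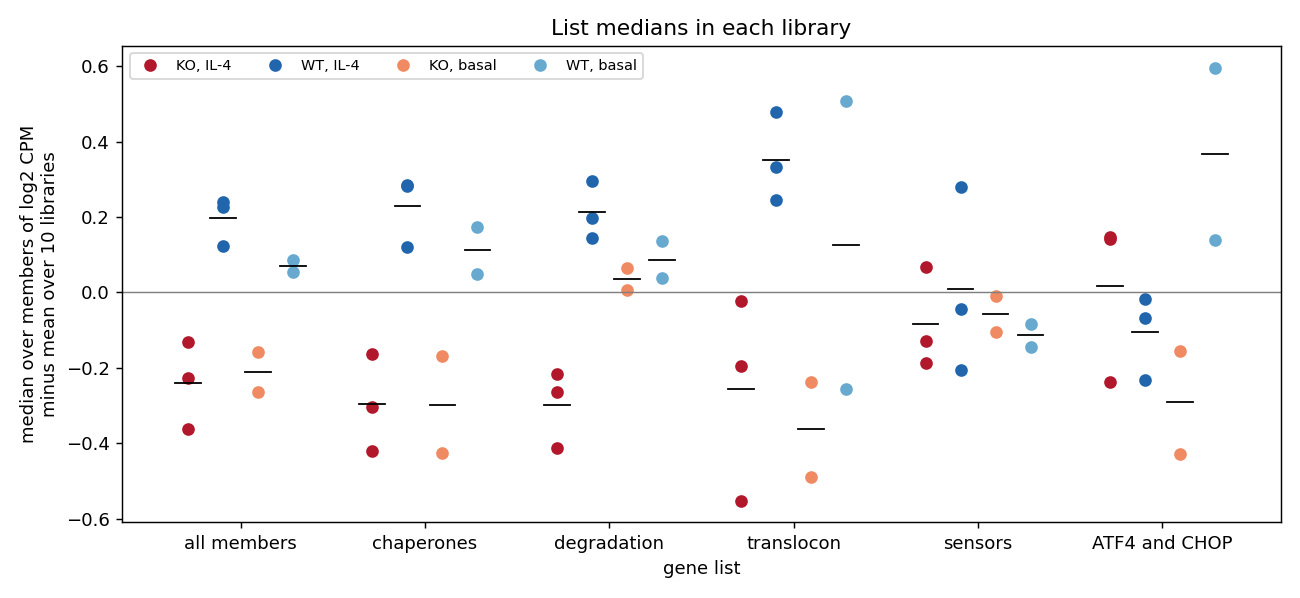
Median over the tested members of each list, in each library, of log2 CPM minus the gene's mean over the 10 libraries, with a bar for the group mean. Over all members the 5 knockout libraries lie between -0.36 and -0.13 and the 5 wild type libraries between 0.05 and 0.24. The genotypes overlap for the degradation genes, the translocon, the sensors and the ATF4 and CHOP branch.

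Over all tested members, the median of these centred values was -0.13, -0.23 and -0.36 in knockout IL-4 libraries, against 0.24, 0.12 and 0.23 in wild type IL-4 libraries. In basal libraries it was -0.16 and -0.26 in knockout, against 0.09 and 0.06 in wild type. Each knockout library was below each wild type library, for the chaperones as well, and this was also so for the cytosolic heat shock genes (knockout -0.19 to -0.0046, wild type 0.06 to 0.23). The translocon list overlapped, with wild type basal replicate 1 at -0.26 and knockout IL-4 replicate 2 at -0.02. The degradation list was apart after IL-4 but not in basal libraries, where it was at 0.01 and 0.07 in knockout, against 0.14 and 0.04 in wild type.

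For IL-4 in wild type macrophages, members past the threshold went in both directions, and their number was near the share of all genes given below. The Sec61 channel gene Sec61a1 and the BiP cofactor gene Dnajc3 rose, and Ddit3 fell. Of 36 members, 19 were below 0 and 17 above, with a median log2 (IL-4 minus basal) of -0.04, against 4.05e-05 over all genes. The test called 3.26% of all genes higher and 2.80% lower, and 2 of 36 members higher and 1 lower.

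Dnajc3 (ENSMUSG00000022136, chromosome 14, 118937976 to 118981697) had 627, 1092 and 880 CPM in wild type IL-4 libraries, against 279 and 408 CPM in wild type basal libraries. All IL-4 libraries were above both basal ones, and the rise was 2.52-fold (866 ± 233, n = 3, against 343 ± 91.5 CPM, n = 2, SD; log2 1.34 ± 0.28, edgeR adjusted p = 0.0117). Sec61a1 (ENSMUSG00000030082, chromosome 6, 88503579 to 88518905) had 82.3, 83.2 and 101 CPM in wild type IL-4 libraries, against 43.3 and 44.8 CPM in wild type basal libraries. Again without overlap, it rose 2.01-fold (log2 1.01 ± 0.25, adjusted p = 0.0234). Ddit3 had 19.03, 16.2 and 14.3 CPM in wild type IL-4 libraries, against 36.2 and 29.7 CPM in wild type basal libraries. Ddit3 fell 1.99-fold, with all IL-4 libraries below both basal ones (log2 -1.0 ± 0.26, adjusted p = 0.0357).

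All 3 calls depended on single wild type libraries. With basal replicate 1 missing, Dnajc3 had an adjusted p of 0.100 and Sec61a1 of 0.116, and with IL-4 replicate 2 missing 0.0532 and 0.0535. The Sec61a1 call also ended with basal replicate 2 (0.127) or IL-4 replicate 3 (0.0925) missing. The Ddit3 call ended with any of the 5 wild type libraries missing (0.0583 to 0.196) and with library totals (0.0538). Markers of small macrophages, monocytes and dendritic cells summed to 5021 to 6205 CPM in wild type IL-4 libraries, against 671 to 1100 CPM in wild type basal libraries (without Retnla, 2155 to 2574 against 399 to 804 CPM), and G2 and mitosis markers to 520 to 579 against 199 to 225 CPM, and their part was not tested.

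Over all members tested in wild type, the 3 called ones included, 10 of 36 (27.8%) had every IL-4 library above every basal library, against 20.8% of all genes, and 5 (13.9%) below, against 19.5%. Syvn1 and Edem1 had the smallest p of the degradation genes (log2 0.54 ± 0.25 and 0.52 ± 0.26, adjusted p = 0.222 and 0.263). Atf6 and Xbp1 did so among the sensors (log2 0.82 ± 0.32 and -0.53 ± 0.24, adjusted p = 0.151 and 0.215). Ppp1r15a had log2 0.77 ± 0.30 and Atf4 -0.56 ± 0.23, neither past the threshold. Immediate early markers summed to 2629 to 2654 CPM in wild type IL-4 libraries, against 1228 to 1351 CPM in wild type basal libraries. Of these 13 markers, 7 were called higher, against 3.26% of all genes, and their part was not tested. Among the chaperones other than Dnajc3, log2 values ran from -0.50 (Pdia3) to 0.54 (Ero1l), with Calr at -0.46 ± 0.30, Hspa5 at -0.37 ± 0.27 and Hsp90b1 at -0.06 ± 0.21.

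In knockout macrophages IL-4 lowered the degradation genes Syvn1 and Herpud1. Syvn1 (ENSMUSG00000024807, chromosome 19, 6046576 to 6053712), whose window with its ERSE is printed above, had 14.3, 16.4 and 15.9 CPM in knockout IL-4 libraries, against 28.4 and 28.8 CPM in knockout basal libraries. It fell 1.84-fold (15.5 ± 1.09, n = 3, against 28.6 ± 0.25 CPM, n = 2, SD; log2 -0.88 ± 0.24, edgeR adjusted p = 0.0390). Herpud1 (ENSMUSG00000031770, chromosome 8, 94386438 to 94395377), with an ERSE-II in its window, had 44.4, 47.8 and 32.8 CPM in knockout IL-4 libraries, against 71.9 and 71.3 CPM in knockout basal libraries. It fell 1.72-fold (log2 -0.78 ± 0.23, adjusted p = 0.0491). The groups were apart for both genes. With each of the 10 libraries left out in turn, the Syvn1 call held in 2 fits and the Herpud1 call in 1. Their highest adjusted p, 0.193 and 0.211, came with knockout basal replicate 2 missing. Neither call held in a fit with only the 2 knockout groups (0.0838 and 0.121).

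**Figure D5:**
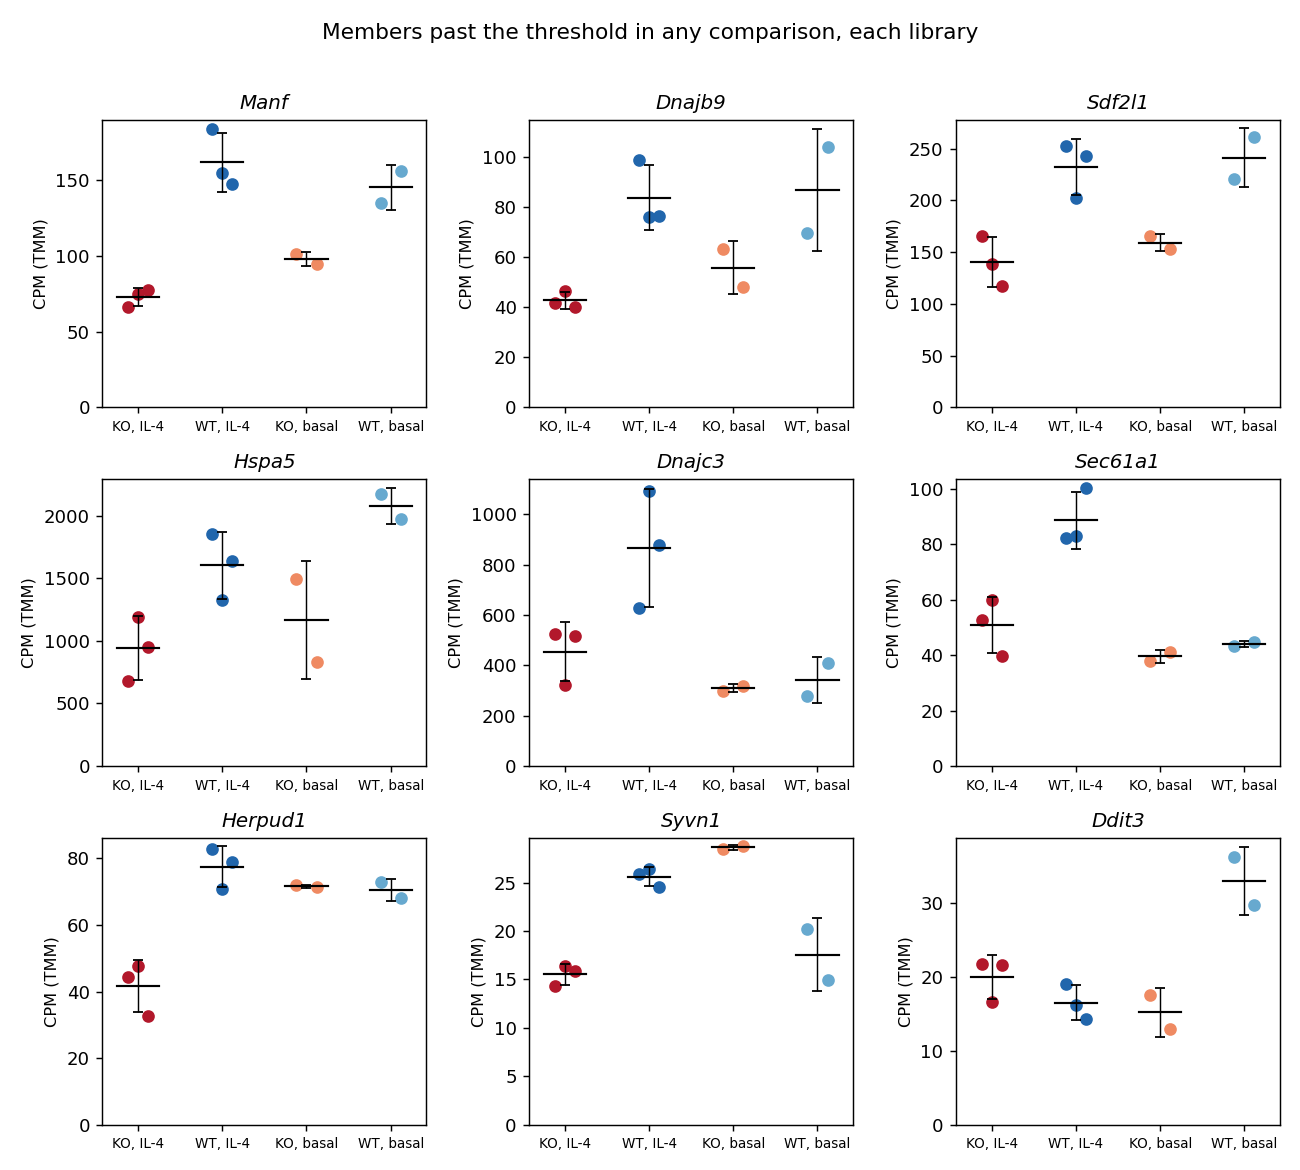
CPM of the 9 members past the threshold in any comparison, the average included, in each library, with a line for the group mean and whiskers for the SD. Herpud1 is low in the 3 knockout IL-4 libraries alone, and Syvn1 is low in knockout IL-4 and wild type basal libraries.

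The test called 4.09% of all genes higher and 3.51% lower for IL-4 in knockout, and 2 of 36 members lower. The median log2 of the members was 0.02, against -0.00173 over all genes. Every IL-4 library was above every basal library in 8 members (22.2%), against 18.4% of all genes, and below in 8, against 21.2%. Among chaperones, Hsp90b1 had 3286, 2879 and 4283 CPM in knockout IL-4 libraries, against 2178 and 2034 CPM in knockout basal libraries (log2 0.73 ± 0.22, adjusted p = 0.0549). Ero1l had log2 1.18 ± 0.36 (adjusted p = 0.0597), Ppp1r15a 0.93 ± 0.30 (0.0698) and Sec61a1 0.36 ± 0.24 (0.402), with Ssr3 next in the translocon (0.16 ± 0.25, 0.750). The sensors Atf6 and Ern1 had log2 -0.75 ± 0.31 (0.164) and 0.50 ± 0.24 (0.225), and Ddit3 had 0.40 ± 0.27 (0.415). None of these passed in edgeR at the settings used throughout, and in DESeq2 Hsp90b1, Ero1l and Ppp1r15a did (adjusted p = 0.0237, 0.0228 and 0.0303). B cell markers were at 858 to 945 CPM in knockout IL-4 libraries, against 2215 to 2554 CPM in knockout basal libraries, and plasma cell markers at 72.7 to 87.9 against 96.9 to 119 CPM. Of 8 plasma cell markers tested, 4 were below 0 and 4 above. Without Irf4 and Slamf7 the plasma cell sums were 16.3 to 28.1 against 55.7 to 66.9 CPM. Mzb1 carried this gap, at 9.65, 11.2 and 6.57 against 50.7 and 49.2 CPM. G2 and mitosis markers were at 876 to 1524 against 74.5 to 150 CPM (19 of 20 called higher), mast cell and basophil markers at 36.3 to 44.7 against 188 to 317 CPM, and T and NK cell markers at 34.8 to 38.6 against 110 to 121 CPM. Cd2 carried the T and NK sum, at 17.8, 20.8 and 24.03 against 84.5 and 82.4 CPM. Immediate early markers were at 2737 to 3395 against 1426 to 2449 CPM (5 of 13 called higher). The part of these cells and markers in the IL-4 differences of knockout was not tested.

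The IL-4 effects in the 2 genotypes (knockout minus wild type) were compared as an interaction. It called 1.02% of all genes higher and 1.78% lower, and of the members Syvn1 alone, lower. The IL-4 effect on Syvn1 was log2 -0.88 ± 0.24 in knockout, against 0.54 ± 0.25 in wild type, a difference of -1.42 ± 0.35 (adjusted p = 0.0393). With each library left out in turn the call held in 2 of 10 fits, and the highest adjusted p was 0.166, with wild type basal replicate 2 missing. Ddit3 (1.39 ± 0.38, adjusted p = 0.0659), Atf6 (-1.57 ± 0.45, adjusted p = 0.0796) and Creld2 (-1.18 ± 0.40, adjusted p = 0.151) came next without passing. The IL-4 rise of Dnajc3 and Sec61a1 in wild type was therefore not shown to differ from knockout (difference log2 -0.78 ± 0.38, adjusted p = 0.350, and -0.65 ± 0.34, adjusted p = 0.383). Of the 36 members, 18 had a difference below 0, and the median was 0.02, against 0.01 over all genes. In the same interaction 17 of 18 tested B cell markers were called lower (median log2 -3.12). So were 3 of 8 neutrophil markers and 5 of 13 markers of small macrophages, monocytes and dendritic cells. Of 20 G2 and mitosis markers, 5 were called higher. The part of these cells in the Syvn1 difference was not tested.

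Other genes of the same pathways were listed apart from the members and described in the same way. After IL-4, 22 of 25 tested genes of translocation and glycosylation were below 0 (median log2 -0.39), as were 14 of 19 further degradation genes (median -0.44) and 17 of 24 further folding genes (median -0.09). Over all genes tested, 48.25% were below 0. Spcs2, a subunit of the signal peptidase, fell, with 172, 214 and 187 CPM in knockout IL-4 libraries, against 334, 528 and 301 CPM in wild type IL-4 libraries (log2 -1.02 ± 0.22, adjusted p = 0.0352). Fkbp11, a prolyl isomerase of the secretory pathway, fell, with 5.08, 4.61 and 6.49 CPM in knockout, against 13.6, 17.6 and 13.4 CPM in wild type (log2 -1.46 ± 0.28, adjusted p = 0.0189). Both were apart between the groups, and no other gene of these 3 lists passed, against 0.474% of all genes called lower. Selenok and Ubxn4 had the smallest p of the degradation genes (log2 -0.73 ± 0.20 and -0.61 ± 0.18, adjusted p = 0.0979 and 0.133). Without IL-4, Sec11c, a catalytic subunit of the signal peptidase, and Srp9, a subunit of the signal recognition particle, fell (log2 -1.31 ± 0.34 and -0.90 ± 0.24, adjusted p = 0.0442 and 0.0472). They were 2 of 25 tested in their list, against 1.53% of all genes called lower. Of 12 further sensors and transcription factors, 5 were below 0 after IL-4 (median log2 0.12), led without a call by Eif2ak1, a haem-regulated kinase (log2 0.81 ± 0.26, adjusted p = 0.169), and Creb3, a relative of ATF6 (log2 -0.63 ± 0.24, adjusted p = 0.239). In the average over treatments, 4 of 25 translocation genes fell (Spcs2, Sec61g, Srp9 and Ssr2), with log2 of -0.96 ± 0.17, -0.82 ± 0.17, -0.73 ± 0.16 and -0.75 ± 0.20 and adjusted p of 0.00561, 0.0147, 0.0158 and 0.0491. Hspa13, Dnajb12 and Fkbp11 fell among the 24 folding genes in the average (log2 -0.61 ± 0.15, -1.48 ± 0.21 and -1.33 ± 0.22, adjusted p = 0.0334, 0.00131 and 0.00366). Of all genes, 1.68% were called lower in the average. Dnajb12 overlapped between the genotypes after IL-4, so that its averaged fall came from the basal libraries.

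Genes outside the ER lists were set beside them. Of 17 tested targets of ATF4 other than the members, 8 were below 0 after IL-4 and 9 above (median log2 0.00340), led without a call by Pck2 and Atf5 (log2 0.65 ± 0.25 and -0.92 ± 0.36, adjusted p = 0.239 and 0.257). At an unadjusted p under 0.05, 2 of them were higher and 2 lower, against 7.47% and 6.94% of all genes. Of 15 cytosolic heat shock genes, 10 were below 0 after IL-4 (median log2 -0.18), led without a call by Bag3 and Hspa1a (log2 -0.61 ± 0.28 and -1.25 ± 0.71, adjusted p = 0.342 and 0.443). Of 8 mitochondrial chaperone genes, 7 were below 0 after IL-4 (median log2 -0.54), led without a call by Hspa9 (log2 -1.08 ± 0.26, adjusted p = 0.0622). Under basal conditions 2 of the 8, Hspe1 and Grpel1, fell, against 1.53% of all genes called lower. Hspe1, the mitochondrial co-chaperonin, had 78.6 and 109 CPM in knockout basal libraries, against 247 and 250 CPM in wild type basal libraries (log2 -1.41 ± 0.27, adjusted p = 0.00640). Grpel1, an exchange factor of mitochondrial HSP70, had 19.3 and 16.7 CPM in knockout, against 33.8 and 114 CPM in wild type (log2 -2.04 ± 0.47, adjusted p = 0.0257). For Grpel1 the wild type libraries were far apart, and both genes were lower in each knockout basal library.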

How the data were processed

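Polyadenylated RNA of sorted peritoneal macrophages was sequenced in 10 libraries. The authors deposited read counts per Ensembl gene, made with STAR and HTSeq on mm10, per the submitters' processing notes. Their versions, the annotation and the strand setting are not given in the sources used here. No count was altered before the tests. Identifiers were matched to GENCODE M21, and 420 identifiers had no symbol.

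Counts were filtered with filterByExpr (minimum count 10, minimum total 15), scaled with TMM and fitted in edgeR 4.0.16 under R 4.3.3 by a robust quasi-likelihood model with 4 group means over all 10 libraries (6 residual degrees of freedom, common biological coefficient of variation 28.4%). Tests were two-sided, and the threshold was an adjusted p of 0.05 (Benjamini-Hochberg, across the 11614 tested genes). Log2 values are given ± SE, with knockout over wild type and IL-4 over basal. The fit was tested on simulated data. Alternatives were library totals, RLE factors, other count filters, DESeq2 1.42.0, only the groups compared, the replicate number as a block and each library left out, where the spread of a group left with 1 library was taken from the others. Figures were drawn with matplotlib 3.10.9 under Python 3.11.15.

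Members and lists were chosen with earlier results of these data known. Members past the threshold are given per library, other members by list with the smallest p, and of other lists up to 4 called genes or 2 values. The targeted gene is not reported here.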

Additional observations from a re-analysis of the deposited data

Results flagged for a closer look

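The IL-4 effect on Syvn1 differed between genotypes by the interaction test, at log2 -1.42 ± 0.35 (IL-4 effect in knockout minus IL-4 effect in wild type, edgeR adjusted p = 0.0393). All 3 knockout IL-4 libraries were below both knockout basal libraries, and all 3 wild type IL-4 libraries were above both wild type basal libraries. The call ended in 8 of 10 fits without 1 library. The exons of Syvn1 share 91 bases with Mrpl49 on the other strand. In the same interaction test 17 of 18 B cell markers were called lower, and the part of B cells was not tested.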

How the results depend on the processing

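Counts of called members moved more than medians. Without the filter on low counts they were 12 for knockout against wild type after IL-4, 5 without IL-4, 5 and 7 for IL-4 in wild type and in knockout, 5 for the interaction and 12 for the average of genotypes, while the genes called over the whole table were 290 higher and 215 lower after IL-4 (41 and 55 with the filter). The other whole-table calls also rose without the filter. They were 454 higher and 580 lower for the genotypes without IL-4. For IL-4 they were 563 and 646 in wild type and 861 and 562 in knockout. For the interaction they were 487 and 332, and for the average 418 and 516. The 12 after IL-4 included Pdia3, higher, and for IL-4 in knockout Syvn1 and Herpud1 were not among the 7, of which 6 were higher. DESeq2 called 8 and 2 for the genotypes after and without IL-4, 5 for IL-4 in knockout, 3 for the interaction and 7 for the average. Over the whole table DESeq2 called 196 genes higher and 189 lower after IL-4, and 481 and 367 without IL-4. For IL-4 in knockout it called 773 and 537, for the interaction 273 and 321, and for the average 478 and 331. Library totals gave 2 for the genotypes after IL-4 and 2 for the interaction. After IL-4 they called 45 genes higher and 70 lower over the whole table (41 and 55 with TMM). They moved the median of all genes to 0.13 for the genotypes without IL-4, -0.10 for IL-4 in knockout and -0.17 for the interaction. With them, 421 genes were called higher and 110 lower without IL-4 (303 and 178 with TMM), 481 and 256 for IL-4 in wild type (379 and 325), 386 and 532 in knockout (475 and 408), 92 and 275 for the interaction (119 and 207), and 356 and 144 in the average (269 and 195). RLE factors gave 1 for IL-4 in knockout, with 491 genes called higher and 391 lower over the whole table. With only the groups compared, 0 members were called without IL-4 and 0 for IL-4 in knockout. These fits called 250 genes higher and 128 lower without IL-4, and 301 and 288 for IL-4 in knockout. Leaving out 1 IL-4 library gave 0 to 2 members after IL-4 and 0 to 1 without IL-4. It gave 0 to 3 for IL-4 in wild type, 0 to 5 in knockout, 0 to 2 for the interaction and 1 to 7 for the average. Over the whole table these fits called 8 to 74 genes higher and 13 to 50 lower after IL-4. Without IL-4 they called 250 to 341 and 119 to 217. For IL-4 they called 201 to 405 and 139 to 359 in wild type, and 352 to 544 and 270 to 368 in knockout. The interaction had 60 to 177 and 152 to 220, and the average 161 to 262 and 79 to 179. The median of members for IL-4 in knockout, 0.02, was -0.0844 with library totals and -0.0145 to 0.0981 without 1 library, and the other medians moved by less than the spread between replicates in all alternatives run. The cause of these changes was not tested.

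Replicate numbers were not used to pair the libraries in the main fit. Over 13 pairs with the same number, correlations of deviations from group means ran from -0.11 to 0.06. Over 24 pairs with different numbers they ran from -0.14 to 0.16. In the basal groups, with 2 libraries each, the deviations mirror each other, so these values cannot decide whether libraries were paired. With the replicate block, 1 member was called for IL-4 in wild type and 0 for IL-4 in knockout, and for the interaction Atf6 took the place of Syvn1 (adjusted p = 0.0766). The block also ended the calls of Ddit3 without IL-4 (0.0560) and of Hspa5 in the average (0.0539). The number of basal libraries, 2 a group, limits the precision of the comparisons that use them.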

Other observations

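Nupr1, a stress-induced chromatin regulator that ATF4 can raise, fell after IL-4 in both genotypes. It had 30.7, 45.7 and 46.1 CPM in knockout IL-4 libraries, against 109 and 91.7 CPM in knockout basal libraries (log2 -1.30 ± 0.26, edgeR adjusted p = 0.00576), and 59.1, 50.9 and 36.8 CPM in wild type IL-4 libraries, against 179 and 169 CPM in wild type basal libraries (log2 -1.83 ± 0.26, adjusted p = 0.000793). Psat1, an enzyme of serine synthesis and a target of ATF4, rose in knockout after IL-4 (log2 1.58 ± 0.44, adjusted p = 0.0381), at 9.75, 6.53 and 8.41 CPM in knockout IL-4 libraries, against 3.35 and 2.15 CPM in knockout basal libraries. Slc7a11, another of the 17 tested targets of ATF4, was higher with IL-4 in both genotypes, at low levels. It had 1.93, 2.76 and 1.76 against 0 and 0.09 CPM in knockout. In wild type it had 3.47, 2.06 and 2.88 against 0 and 0.34 CPM. For IL-4, 2 of the 17 were called higher and 1 lower in knockout, against 4.09% and 3.51% of all genes. In wild type 1 was called higher and 1 lower, against 3.26% and 2.80%. Rnf5, a ubiquitin ligase of ER degradation, fell after IL-4 in knockout (log2 -1.13 ± 0.30, adjusted p = 0.0320) and in wild type (log2 -1.49 ± 0.30, adjusted p = 0.00836).

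Dnajb12, a membrane co-chaperone, was high only in wild type basal libraries, at 76.7 and 63.9 CPM. It had 17.0, 10.98 and 12.8 CPM in knockout IL-4 libraries, 17.6, 11.2 and 13.2 CPM in wild type IL-4 libraries and 8.003 and 10.6 CPM in knockout basal libraries. The basal genotype difference was log2 -2.91 ± 0.33 (adjusted p = 0.000156). Ero1lb, the sister gene of Ero1l, went the other way under basal conditions, at 30.1 and 21.8 CPM in knockout, against 6.23 and 6.51 CPM in wild type (log2 2.02 ± 0.39, adjusted p = 0.00715).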
